A study of Homo sapiens with 6 samples.

Results

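A set of 10 genes of the splicing machinery, 8 SR splicing factors (SRSF1, SRSF2, SRSF3, SRSF4, SRSF5, SRSF6, SRSF7 and SRSF11) and 2 of the CDC-like kinases that phosphorylate them (CLK1 and CLK4), were followed by SLAM-seq in MOLM-13 cells, an established acute myeloid leukaemia line. They were chosen by name and found through their Entrez identifiers, and all 10 were present among the 25420 genes listed, with 23 of the 58136 annotated 3′ UTR entries. One group of 3 libraries came from cells given the solvent DMSO and the other group of 3 from cells given 10 µM C646, an inhibitor of the lysine acetyltransferases CBP and p300, both for 2 h. All 6 samples received 100 µM of the uridine analogue 4-thiouridine (4sU) during the last 1 h, so that no unlabelled control is part of the comparison. In SLAM-seq the incorporated 4sU is alkylated and read as C, and a read with at least 1 T > C conversion (T > C read) marks RNA made during the labelling hour. RNA made during the first hour of treatment, before 4sU was added, has no label. A read of labelled RNA can also lack a conversion, so that reads without T > C are not all from unlabelled RNA.

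SR proteins bind exonic and intronic RNA elements through their RNA recognition motifs and recruit the spliceosome through a tail rich in arginine-serine dipeptides. The kinases of the CLK family phosphorylate this tail in the nucleus and so control where SR proteins reside and how they act. Many genes of both families carry conserved exons or introns whose inclusion yields transcripts that are kept in the nucleus or degraded, a form of autoregulation known well for SRSF2, SRSF3 and CLK1.

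The reads sample the end of a transcript, and the sequences printed here show which end was counted. In 9 of the 10 genes, the entry with the most reads held one of the 2 commonest poly(A) signals, AATAAA in 5 and ATTAAA in 4, within its last 50 bases, whereas 81.2% of 8785 entries compared (1 per gene) did. CLK4 was the exception. The 30-base windows of the 4 genes on which most of the changes below rest are given 5′ to 3′ on the strand of the gene (GRCh38), with the signal in capitals.
CLK1: cttcctacttctATTAAAgaatggacatag
SRSF5: tttgttattgatAATAAAatattataaaac
SRSF4: ccattaaatttgAATAAAgactatttttgc
SRSF2: ttctgtagtttaATTAAAacattttcttgg
The windows lie in the entries chr2:200853009-200853449 (CLK1, minus strand), chr14:69771462-69772005 (SRSF5, plus strand), chr1:29147738-29148409 (SRSF4, minus strand) and chr17:76734115-76736464 (SRSF2, minus strand). In the GENCODE annotation they cover the 3′ terminal exon of their gene with its 3′ UTR, and that of SRSF2 also holds 995 bases that are intronic in the canonical transcript. The SRSF2 entry also covers an exon of MFSD11 on the opposite strand. Whether counting used the strand is not given in the sources used here.

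Of the 10 genes 7 had 1 entry, and the further entries of SRSF1 and SRSF2 held at most 0.0391% of their reads. CLK1 had 11 entries, 5 of them without a read. Multimapped reads made up 14.9% ± 2.96 (SD, n = 3) of the SRSF3 reads in DMSO and at most 0.518% on average for the other 9 genes, CLK1 and CLK4 included, so that values of SRSF3 are less certain.

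The libraries held 7252597 to 10225448 reads on 3′ UTRs. T > C reads made up 8.79% ± 0.0637 of them in DMSO and 6.48% ± 0.203 in C646 (SD, n = 3 each; exact permutation test, two-sided, p = 0.1, which is the lowest value that 3 against 3 libraries can give). The share of filtered reads that lay on 3′ UTRs rose with the group too, from 50.7% ± 0.928 to 59.2% ± 2.81 (exact permutation p = 0.1), and its part in the results was not tested beyond the scaling alternative given with them. All 11 myeloid leukaemia markers had at least 10 reads in every library, with a summed level of 3797 to 4077 CPM in DMSO and 3937 to 4290 CPM in C646. Of 4 erythroid markers 3 had no read and the sum reached 0.278 CPM. Lymphoid markers summed to 79.1 to 104 CPM in DMSO and 35.5 to 74.3 CPM in C646, epithelial and stromal markers to 148 to 163 CPM and 98.4 to 134 CPM, and the part of these differences in the results was not tested. Each of these sums, the erythroid one aside, was mostly 1 gene, with DMSO means of 2806 CPM for LYZ, 83.9 CPM for NKG7 and 150.0 CPM for PECAM1, and 2 of 6 lymphoid and 1 of 6 epithelial and stromal markers had at least 10 reads in every library. The lymphoid and the epithelial and stromal sums thus do not show that such cells were present. Of the 11 myeloid markers, in all reads, SPI1 (called lower, -1.07) and CD33 (-0.55) fell and FLT3 (0.62) and PTPRC (0.92) rose by the adjusted p. Of the 3 epithelial and stromal markers tested COL1A1, at 1.51 CPM in DMSO, was called higher (2.02), while PECAM1 (-0.48) and KRT18 (-0.97) did not pass, and none of 3 lymphoid markers passed (1 at an unadjusted p under 0.05 in edgeR). Here CPM denotes reads per 1000000 of the TMM-scaled total of all reads on 3′ UTRs. Neither the labels nor the methods say that the replicates were separate cultures, so p-values measure the spread between these samples, which may be technical.

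The first question was how fast the transcripts of these genes turned over without the inhibitor, which the T > C share of a gene's reads after 1 h of labelling describes. The kinase transcripts were labelled far more than those of the SR factors. For CLK1, 72.5%, 79.8% and 73.6% of the reads carried a T > C conversion in DMSO replicates 1, 2 and 3 (mean 75.3% ± 3.92), which put it at rank 33 of 8607 genes. For CLK4 the shares were 51.7%, 63.9% and 53.6% (mean 56.4% ± 6.59, rank 161). The lowest CLK1 library lay above the highest CLK4 library, and the lowest CLK4 library above every library of an SR factor.

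Among SR factors, SRSF4 had 33.2%, 28.0% and 22.6% T > C reads in DMSO (mean 27.9% ± 5.32), at percentile 86.7 of all genes. The other 7 lay between 9.35% ± 1.18 for SRSF1 (percentile 39.2) and 15.7% ± 1.04 for SRSF7 (percentile 65.5), around the median gene at 11.6%. SRSF7 was above SRSF2 in every library, and SRSF2, SRSF6, SRSF3, SRSF11, SRSF5 and SRSF1, in this order, each overlapped the next in range. Within each library, SRSF6 lay above SRSF3 and SRSF3 above SRSF11, while the other neighbours among these 6 changed order between libraries. Differences between neighbours were not tested.

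A T-rich end gives 4sU more places to be read, and CLK1 and CLK4 had T-rich ends, with 39.2% T (percentile 97.6) and 37.3% T (percentile 93.2) in their main entries against a median of 30.03%. Counted per covered T, which takes out the number of T positions, 6.12 ± 0.974 of 100 were converted in CLK1 (rank 39) and 4.87 ± 1.07 in CLK4 (rank 116), so both kept their place near the top, whereas SRSF4 had 2.08 ± 0.267 (SD, n = 3). The remaining SR factors had between 0.689 for SRSF1 and 1.17 for SRSF7, and the median gene had 0.779. Both kinases also held ATTTA, the core of AU-rich elements known from short-lived mRNAs, at a higher density than most genes. There were 4.54 per kb in CLK1 (percentile 88.4) and 4.20 per kb in CLK4 (percentile 86.0) against a median of 1.63 per kb. These densities rest on 2 copies in the 441 bases of the CLK1 entry and 4 in the 953 bases of the CLK4 entry. SRSF2 with 1.28 per kb (percentile 43.5) and SRSF4 with 1.49 per kb (percentile 47.3) did not stand out. The other SR factors ran from 1.65 per kb in SRSF11 to 3.54 per kb in SRSF6. SRSF1, which had the lowest T > C share, had 3.17 per kb, so a higher density did not always go with a higher share. The relation of ATTTA density to the T > C share was not tested. These letters describe the annotated entries and were not tested as sites.

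**Figure D1:**
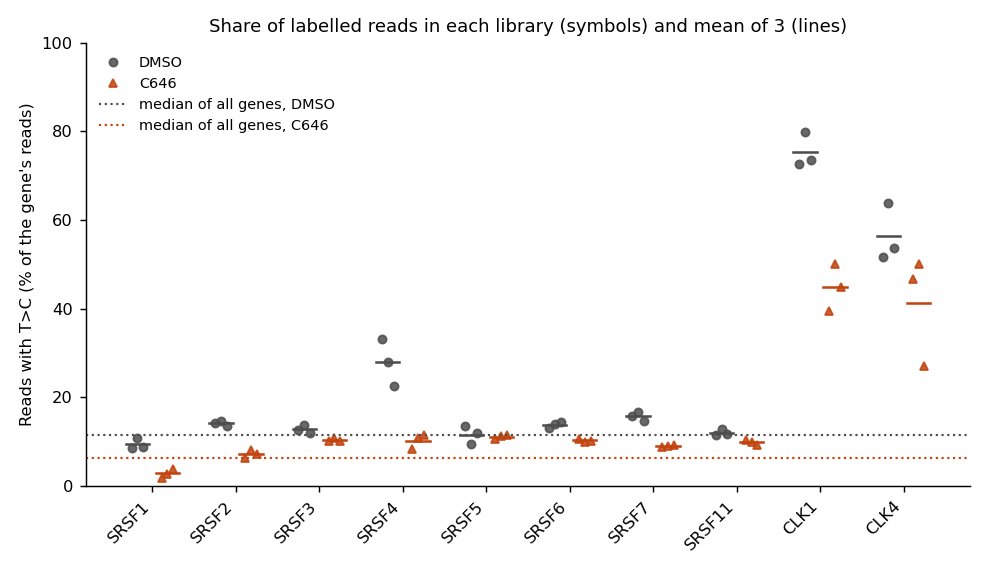
Share of reads with a T > C conversion (y axis, % of the gene's reads) for each gene in the 3 DMSO libraries (circles) and the 3 C646 libraries (triangles), with group means as short lines and the medians of all genes with enough reads as dotted lines. CLK1 at 75.3% and CLK4 at 56.4% in DMSO stood above all SR factors, and in 9 of the 10 genes all C646 libraries lay below all DMSO libraries (64.5% of all genes tested).

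The second comparison asked which of these genes made less new RNA under C646. In T > C reads, SRSF2 was the one gene called lower, where a call needs an adjusted p of at most 0.01 and a change of at least 1 on the log2 scale, and none was called higher. Of all 7722 genes tested, 33.0% were called lower and 2.97% higher. By the adjusted p alone, 5 of the 10 fell (SRSF1, SRSF2, SRSF3, SRSF6 and SRSF7) and 2 rose (SRSF5 and CLK1), beside 38.0% and 3.83% of all genes. The unadjusted p was under 0.05 in 8 of the 10 (60.8% of all genes), and DESeq2 also called 1 lower and 0 higher, beside 31.7% and 2.80% of all genes. In the text below, fell and rose refer to this threshold of the adjusted p, from the quasi-likelihood test of edgeR and the Benjamini-Hochberg method over all genes tested. The log2 fold changes of the 10 had a median of -0.59, and all genes tested had one of -0.83.

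SRSF2, which activates exons with purine-rich and other enhancers and is mutated in myeloid neoplasms, had 67.9, 62.1 and 58.0 CPM of T > C reads in DMSO and 22.8, 25.5 and 21.7 CPM in C646. The groups were far apart. Its log2 fold change was -1.43 ± 0.17 (SE; edgeR adjusted p = 3.87e-08), and it stayed at or below -1.36 whichever library was left out. SRSF7, an SR factor with a zinc knuckle that also takes part in mRNA export, went from 63.1, 57.5 and 58.0 CPM to 29.1, 31.8 and 33.7 CPM, a log2 change of -0.92 ± 0.16 (edgeR adjusted p = 2.40e-05). SRSF6, known as a regulator of tau exons, went from 46.9, 59.7 and 55.1 CPM to 31.3, 30.8 and 29.01 CPM (-0.83 ± 0.16, edgeR adjusted p = 0.000124). For both, every C646 library lay below every DMSO library, which held for 55.8% of all genes tested, and both changes were close to the median of all genes.

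SRSF3, the smallest SR protein, fell less, from 89.7, 85.5 and 82.6 CPM of T > C reads to 61.8, 63.8 and 57.7 CPM. Its log2 change was -0.49 ± 0.15 with an edgeR adjusted p of 0.00538, which rose to between 0.0110 and 0.0244 when any 1 of the 6 libraries was left out. SRSF1, the founding SR protein, had 20.8, 17.1 and 24.3 CPM in DMSO and 5.83, 9.69 and 17.4 CPM in C646. C646 replicate 3 reached the lowest DMSO library, so the groups overlapped. The log2 change of SRSF1 was -0.90 ± 0.26 (edgeR adjusted p = 0.00476). Without C646 replicate 3 it was -1.41 (adjusted p = 2.74e-05) and without DMSO replicate 2 it was -1.02 (adjusted p = 0.00699), both calls. Leaving out DMSO replicate 1, DMSO replicate 3, C646 replicate 1 or C646 replicate 2 gave -0.89, -0.77, -0.59 and -0.81 with adjusted p of 0.0202, 0.0411, 0.0420 and 0.0339.

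SRSF5 and CLK1 went the other way. SRSF5, an SR factor known as an early induced gene in growing cells, had 13.1, 16.2 and 16.04 CPM of T > C reads in DMSO and 23.2, 27.7 and 36.4 CPM in C646. CLK1 had 18.7, 21.4 and 19.1 CPM in DMSO and 26.1, 39.6 and 39.7 CPM in C646. In both genes every C646 library was above every DMSO library, which held for 6.46% of all genes tested. The log2 changes were 0.95 ± 0.20 for SRSF5 (edgeR adjusted p = 0.000244) and 0.84 ± 0.19 for CLK1 (edgeR adjusted p = 0.000517), at percentiles 95.6 and 94.9 of all genes. Both came close to a call, and without C646 replicate 1 both were called higher, at 1.10 for SRSF5 and 1.02 for CLK1, as was SRSF5 at 1.00 without DMSO replicate 2.

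For the remaining 3 genes the test was not passed. SRSF4 had 10.7, 7.08 and 9.44 CPM of T > C reads in DMSO and 4.90, 5.15 and 7.45 CPM in C646, with overlapping groups (-0.63 ± 0.28, edgeR adjusted p = 0.0540). SRSF11, a more distant member of the family, had 15.3, 13.3 and 14.7 CPM in DMSO and 13.2, 12.1 and 10.2 CPM in C646 (-0.29 ± 0.22, edgeR adjusted p = 0.257). CLK4 had 27 to 62 T > C reads per library, the fewest of the 10 genes on average, and levels of 4.85, 8.61 and 4.04 CPM against 4.77, 3.31 and 3.77 CPM. Its difference of -0.56 ± 0.34 did not pass (edgeR adjusted p = 0.165) and ran from -0.75 to -0.18 with any library left out. Low depth and spread between libraries were not told apart.

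These directions rest on the scale of all reads. Scaled by TMM on the T > C reads themselves, which centres the genes, the median of all genes moved from -0.83 to 0.011 and the calls among all genes from 2548 lower and 229 higher to 596 lower and 717 higher. On that scale SRSF2 had -0.59 (adjusted p = 0.00714) and no member was called lower, whereas SRSF5 (1.78) and CLK1 (1.67) were called higher, and SRSF3, SRSF4, SRSF6, SRSF11 and CLK4 changed sign. SRSF1 (-0.079, adjusted p = 0.848) and SRSF7 (-0.082, adjusted p = 0.737) no longer passed. With the totals of all filtered reads as the scale, SRSF1 (-0.68, adjusted p = 0.0416) and SRSF3 (-0.29, adjusted p = 0.124) did not pass either, and SRSF5 (1.17) and CLK1 (1.05) were called higher.

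**Figure D2:**
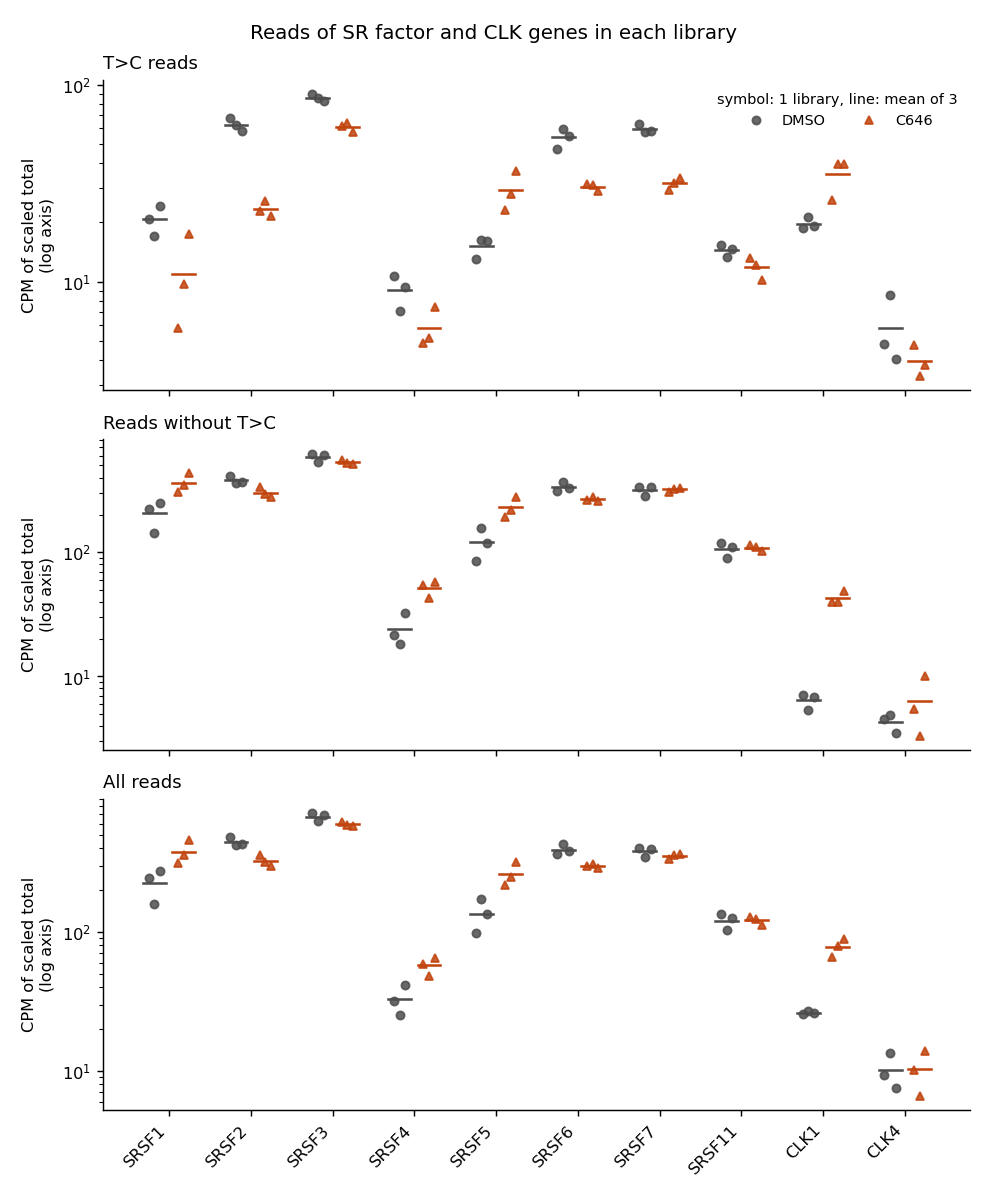
Level of T > C reads, of reads without T > C and of all reads (y axes, CPM of the TMM-scaled total of all reads, log scale) for each gene in each library, DMSO as circles and C646 as triangles, with the mean of 3 as a line. SRSF2 T > C reads separated downwards (62.6 against 23.3 CPM on average), and CLK1 and SRSF5 separated upwards in all 3 panels.

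The third comparison took all reads, which measure the mRNA present, and the reads without T > C. In all reads CLK1 was the one gene called higher and none was called lower. Of 10851 genes 5.89% were called higher and 1.88% lower. By the adjusted p alone CLK1, SRSF4 and SRSF5 rose, beside 9.82% of all genes, and none fell, beside 6.28%. In edgeR 6 of the 10 had an unadjusted p under 0.05 (42.6% of all genes), and by DESeq2 SRSF2 also passed the adjusted p (-0.45, adjusted p = 0.00530). Among reads without T > C, 2 genes were called higher (CLK1 and SRSF4, background 8.01%) and none lower (background 0.880%), and 4 rose by the adjusted p alone (SRSF1 and SRSF5 in addition, background 12.2%) while none fell (background 3.42%). In edgeR 6 of the 10 had an unadjusted p under 0.05 there too, and DESeq2 called 2 higher and 0 lower, beside 8.65% and 1.11% of all genes. Without overlap in these reads, 4 genes lay higher in C646 (CLK1, SRSF1, SRSF4 and SRSF5) and 2 lower (SRSF2 and SRSF6), beside 30.1% and 17.3% of all genes.

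CLK1 went from 25.8, 26.8 and 26.0 CPM of all reads in DMSO to 66.0, 79.3 and 88.4 CPM in C646. The DMSO libraries had an SD of 0.540 CPM, and every C646 library lay far above them. The log2 change was 1.57 ± 0.16 (edgeR adjusted p = 1.09e-05), rank 324 of 10851 from the top, and lay between 1.47 and 1.69 with any library left out. Most of the additional reads had no T > C conversion, which does not show that all of them came from unlabelled RNA. Without T > C, CLK1 had 67, 39 and 51 reads in the DMSO libraries and 301, 323 and 490 in the C646 libraries, or 7.07, 5.41 and 6.88 CPM against 39.9, 39.6 and 48.7 CPM. That is a log2 change of 2.72 ± 0.20 (edgeR adjusted p = 3.80e-07), rank 90 of 10568, and 70.2% of the rise in CLK1 reads. The share of labelled CLK1 reads was accordingly lower, at 39.6%, 50% and 44.9% in C646.

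CLK4, the close paralogue of CLK1, was not called in any kind of read. It had 9.39, 13.5 and 7.55 CPM of all reads in DMSO and 10.2, 6.63 and 13.9 CPM in C646, with overlapping groups (0.026 ± 0.29, edgeR adjusted p = 0.955). Its reads without T > C came to 4.54, 4.86 and 3.51 CPM in DMSO and 5.43, 3.31 and 10.1 CPM in C646, where replicate 3 was the highest of all libraries. The difference between CLK1 and CLK4 was not tested. Both genes had highly labelled transcripts in DMSO. Among the 245 genes with a T > C share of at least 50% in DMSO and tested in all reads, the median log2 change in all reads was -0.095 (quartiles -0.57 and 0.45), 56.3% lay below 0 and 13 lay above CLK1.

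**Figure D3:**
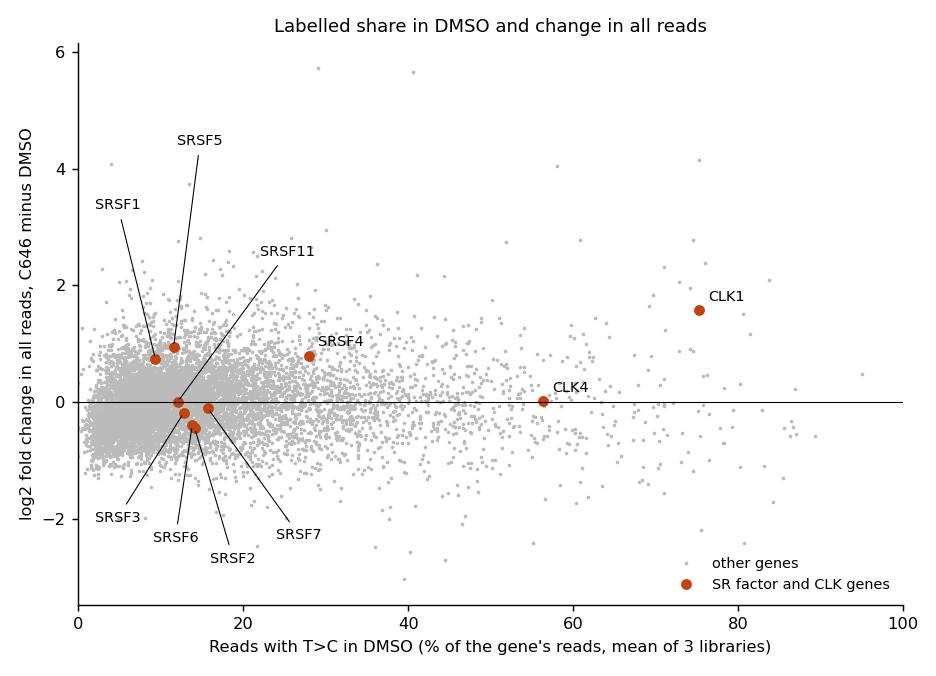
T > C share in DMSO (x axis, % of the gene's reads) and log2 fold change in all reads (y axis, C646 minus DMSO) of every gene with enough reads (grey), with the 10 genes in colour. CLK1 (75.3%, 1.57) lay in the sparse upper right, CLK4 (56.4%, 0.026) at the zero line, and the SR factors, SRSF4 excepted, within the dense part at low shares.

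Among the SR factors, SRSF5, SRSF4 and SRSF1 had more reads in every C646 library than in any DMSO library, as 24.5% of all genes did. SRSF5 had 97.5, 174 and 135 CPM of all reads in DMSO and 217, 248 and 316 CPM in C646. Its log2 change was 0.95 ± 0.19 in all reads (edgeR adjusted p = 0.00254) and 0.95 ± 0.20 in reads without T > C (edgeR adjusted p = 0.00302), the same size as in T > C reads, and 88.8% of the rise lay in reads without T > C. Without DMSO replicate 1, DMSO replicate 3 or C646 replicate 2 the adjusted p in all reads was 0.0149, 0.0119 and 0.0108 and in reads without T > C 0.0153, 0.0152 and 0.0124, while without DMSO replicate 2 or C646 replicate 1 SRSF5 was called higher in both (1.16 and 1.07 in all reads, 1.18 and 1.07 in reads without T > C).

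SRSF4, an SR protein with a long arginine-serine tail, had 32.1, 25.3 and 41.8 CPM of all reads in DMSO and 59.2, 47.9 and 65.3 CPM in C646 (0.80 ± 0.19, edgeR adjusted p = 0.00620). In reads without T > C it went from 21.4, 18.2 and 32.4 CPM to 54.3, 42.7 and 57.8 CPM, called higher with a log2 change of 1.11 ± 0.21 (edgeR adjusted p = 0.00138). Its T > C reads did not pass the test and had a change of the opposite sign. The change in all reads lost the adjusted p without DMSO replicate 1 (0.0292), DMSO replicate 2 (0.0259), C646 replicate 1 (0.0137), C646 replicate 2 (0.0105) or C646 replicate 3 (0.0167) and was called without DMSO replicate 3 (1.00). The call in reads without T > C was lost without DMSO replicate 2 (0.95, adjusted p = 0.00702).

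SRSF1 had 244, 159.5 and 275 CPM of all reads in DMSO and 311, 359 and 455 CPM in C646. The log2 change of 0.73 ± 0.19 stood at the threshold (edgeR adjusted p = 0.0102) and passed it by DESeq2 (0.72, adjusted p = 0.00217) and, in edgeR, with no low-count filter (0.73, adjusted p = 1.27e-05), with totals of all filtered reads (0.94, adjusted p = 0.00276) and without DMSO replicate 3 (0.00885) or C646 replicate 1 (0.00536). In reads without T > C SRSF1 rose by 0.83 ± 0.19 (edgeR adjusted p = 0.00548), which did not hold without DMSO replicate 1 (0.0142), DMSO replicate 2 (0.0160), C646 replicate 2 (0.0210) or C646 replicate 3 (0.0174). Its T > C reads and its reads without T > C thus changed in opposite directions by these tests.

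The remaining SR factors did not pass the test in all reads. SRSF2 had 480.0, 424 and 428 CPM of all reads in DMSO and 360.3, 319 and 299 CPM in C646 (-0.44 ± 0.13, edgeR adjusted p = 0.0183). SRSF6 had 361, 426 and 382 CPM against 296, 308 and 286 CPM (-0.39 ± 0.13, edgeR adjusted p = 0.0288). In both, and in SRSF3, no C646 library reached a DMSO library, 3 of 10 genes beside 23.1% of all genes, and none of the 3 passed the threshold. SRSF3 had a log2 change of -0.19 ± 0.12, SRSF7 one of -0.11 ± 0.13 and SRSF11 one of 0.0019 ± 0.14 (edgeR adjusted p = 0.265, 0.540 and 0.994). SRSF7, whose T > C reads fell, averaged 320.2 CPM of reads without T > C in DMSO and 320.5 CPM in C646 (0.0010 ± 0.13 on the log2 scale).

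**Figure D4:**
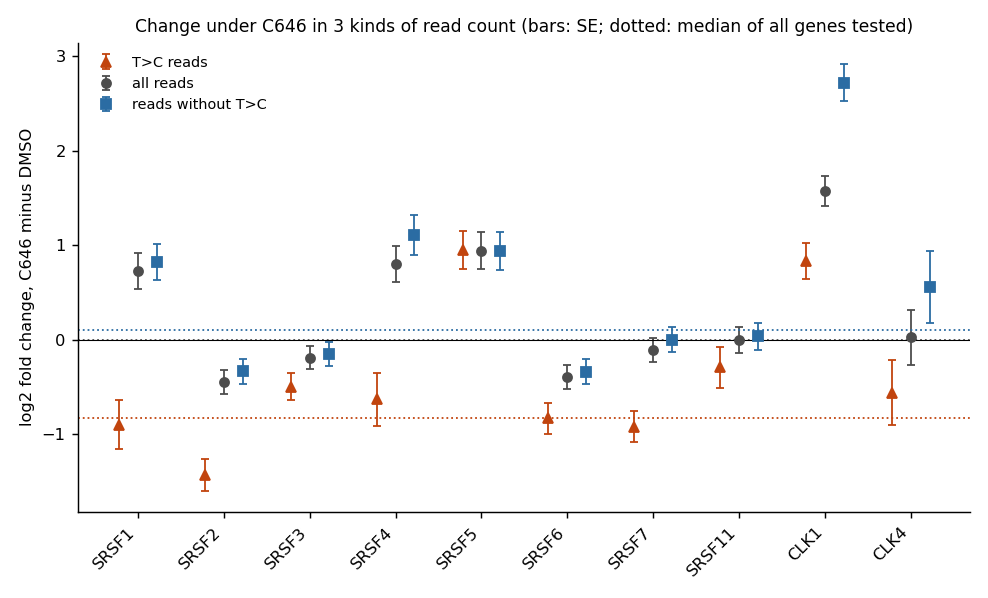
Log2 fold change (y axis, C646 minus DMSO) of each gene in T > C reads (triangles), all reads (circles) and reads without T > C (squares), with SE as bars and the medians of all genes tested as dotted lines. The 3 changes of SRSF5 coincided near 0.95, those of CLK1 ran from 0.84 to 2.72, and those of SRSF1 and SRSF4 had opposite signs in T > C reads and in reads without T > C.

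The fourth comparison put T > C and other reads of the same library side by side, which needs no scaling between libraries. The odds of a T > C read were called lower in 4 of the 10 genes, CLK1 (-1.90 ± 0.29 on the log2 scale), SRSF1 (-1.80 ± 0.21), SRSF4 (-1.77 ± 0.31) and SRSF2 (-1.09 ± 0.15), with edgeR adjusted p of 1.14e-05, 2.31e-07, 6.21e-05 and 2.61e-06. This was near the background of 38.3%. None was called higher (background 0.790%) or rose by the adjusted p alone (1.14%), with 7 of 10 at an unadjusted p under 0.05 in edgeR (66.7% of all genes). All 10 changes were below 0, as were 92.0% of all genes, with a median of -0.95 beside -1.004 for all genes. By the adjusted p alone SRSF7 (-0.92 ± 0.14, edgeR adjusted p = 1.53e-05) and SRSF6 (-0.49 ± 0.15, edgeR adjusted p = 0.00642) fell too, 6 of 10 beside 44.8%. The call of SRSF2 was lost without C646 replicate 1 (-0.995, adjusted p = 1.72e-05), and SRSF6 lost the threshold without DMSO replicate 1 (0.0143), DMSO replicate 2 (0.0260), DMSO replicate 3 (0.0365) or C646 replicate 2 (0.0209). With no low-count filter SRSF6 missed it too (edgeR adjusted p = 0.0104).

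In shares, SRSF1 went from 8.52%, 10.7% and 8.83% labelled reads to 1.87%, 2.70% and 3.82%, and SRSF4 from 33.2%, 28.0% and 22.6% to 8.28%, 10.8% and 11.4%. For SRSF1 this moved the gene from percentile 39.2 to percentile 19.7 of all genes, and for SRSF4 from percentile 86.7 to 70.3. SRSF5 had 13.4%, 9.35% and 11.9% in DMSO and 10.7%, 11.2% and 11.5% in C646. Its groups overlapped in this share. Counted per 100 covered T, however, 1.05, 0.7500 and 0.723 were converted in DMSO and 0.695, 0.564 and 0.6898 in C646, so that every C646 library of SRSF5 was lower than every DMSO library on this measure. The median of all genes with enough reads was lower in C646 on this measure too, at 0.362 against 0.779 in DMSO, and the change of SRSF5 on it was not tested. The odds of SRSF5 changed by -0.043 ± 0.19 (edgeR adjusted p = 0.849) and its share moved from percentile 49.9 to 73.8. The 9 other genes had no C646 library as high as a DMSO library, beside 64.5% of all genes tested, and none the reverse, beside 2.16%. SRSF3 (-0.35 ± 0.13), SRSF11 (-0.33 ± 0.22) and CLK4 (-0.97 ± 0.52) were among them and did not pass the threshold (edgeR adjusted p = 0.0209, 0.179 and 0.102).

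The number of conversions per T > C read is a further readout. SRSF1 had 2.71, 2.59 and 2.43 in DMSO and 1.75, 1.99 and 2.25 in C646, and SRSF2 had 2.99, 2.79 and 2.83 against 1.87, 2.00 and 2.42. SRSF6 averaged 2.497 in DMSO and 2.56 in C646. Over whole libraries the number went from 2.05 ± 0.0576 to 1.895 ± 0.01997 (SD, n = 3; exact permutation p = 0.1), and the change of single genes was not tested.

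CLK1 was the one gene with more than 0.0391% of its reads outside its main entry. The 3′ terminal entry held 84.2% of its reads. The second entry, chr2:200859680-200861466 (minus strand), held 8.11% and covered 387 bases of 3 exons and 1400 intronic bases of the canonical transcript (GENCODE). The third entry, chr2:200861702-200861862, held 5.33% and lay within 1 exon, as did part of the fourth (2.03%). All 10 entries upstream of the terminal one ended directly before a GT, 8 of them before GTAAG, letters of a 5′ splice site, and none had a poly(A) signal in its last 50 bases. The first 30 genomic bases after the end of the second, the third and the fourth entry are shown on the strand of the gene because they place the ends of these entries at exon borders, with GTAAG in capitals and each entry named by its share of the CLK1 reads.
CLK1 8.11% entry: GTAAGtttcccatgttgggattacttttag
CLK1 5.33% entry: GTAAGgaggatacttaaaatgtctgaatat
CLK1 2.03% entry: GTAAGacgcaggagggagcggactaggtga

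Reads on the second entry were labelled less than those on the terminal entry in each of the 6 libraries. In the terminal entry 79.1%, 83.5% and 83.0% of 201, 170 and 147 reads had a T > C conversion in DMSO, and 42.0%, 55.8% and 48.0% of 398, 529 and 798 reads in C646. In the second entry 4 of 20, 11 of 19 and 7 of 22 reads had one in DMSO, and 13 of 43, 6 of 58 and 4 of 54 in C646. The highest share in the second entry was 57.9%, in DMSO replicate 2, against 83.5% in the terminal entry of the same library. These are few reads, and the difference between entries is given as a description, with no test.

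The share of CLK1 reads on each of the 4 entries tested did not differ between groups by the threshold (log2 change 0.15 ± 0.43 for the terminal entry, edgeR adjusted p = 0.855, and -0.37 for the second entry, adjusted p = 0.568). None of 1859 entries was called in this test (0.00% in each direction), with 380 (20.4%) at an unadjusted p under 0.05. Fitted alone, the T > C reads of the terminal entry had a log2 change of 0.87 (edgeR adjusted p = 0.000778). In this fit by entry 1 of the 10 tested entries was called lower, that of SRSF2 (background 32.4%), and none higher (background 2.96%).

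**Figure D5:**
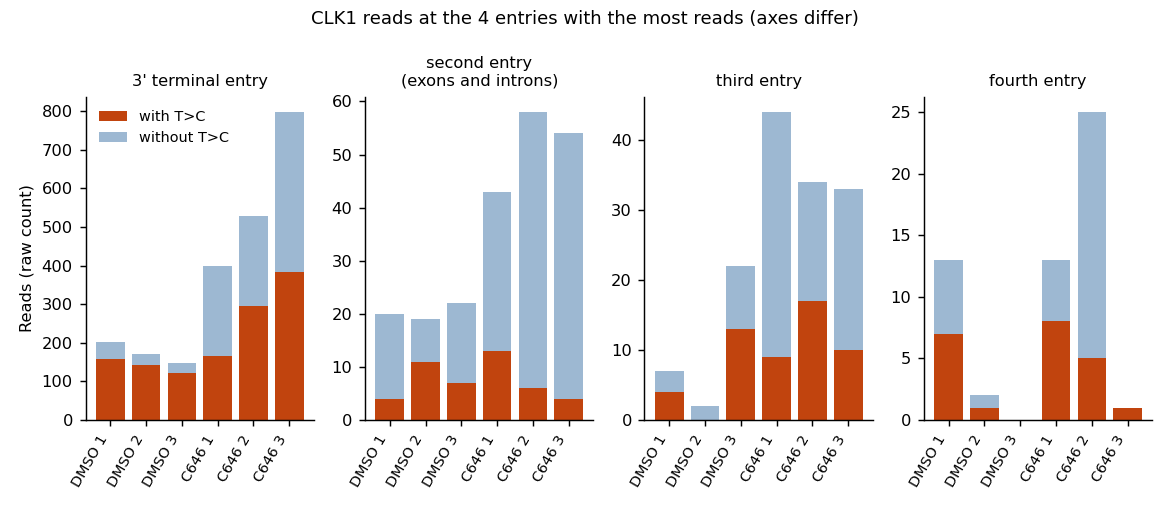
Raw reads of CLK1 with T > C (dark) and without T > C (light) in each library (x axis) at its 4 entries with the most reads, from the 3′ terminal entry on the left to the most upstream on the right, each panel with its own y axis from 0. Reads without T > C made up most of the second entry in 5 of the 6 libraries and a small part of the terminal entry in DMSO.

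Promoters from RefSeq (GRCh38.p14, 250 bases before to 50 bases after the start) were given for 9 of the 10 genes, 12 promoters in all. The letters TGACG, on either strand, which are the core of the cAMP response element bound by CREB, the partner after which CBP was named, were in 9 of the 12 beside 27.7% of 24085 promoters, and in 7 of the 9 genes beside 33.8% of 17565 genes. Both promoters of CLK1 hold the same site, so that it counts more than once among the 12. The whole element TGACGTCA was in none of the 12 (2.23% of promoters), nor were the heat shock element letters GAANNTTC (5.81%) and TTCNNGAA (6.88%), and TATAAA was in 3 (9.42%). The genes with TGACG (CLK1, CLK4, SRSF1, SRSF3, SRSF5, SRSF7 and SRSF11) included CLK1 and SRSF5, which rose, and SRSF1, SRSF3 and SRSF7, which fell in T > C reads. One window of each of the 2 genes that rose is shown (SRSF5 has another match at its start), with the match on the plus strand of the gene or its reverse complement CGTCA in capitals.
CLK1: acgcgctcgctgCGTCAtcagtgttttcga
SRSF5: cgtccccggaagTGACGtaggacgcgccct
They lie at chr2:200864690-200864719 (minus strand) and chr14:69767080-69767109 (plus strand). A match describes these letters and is no evidence of binding.

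Other genes of the pathway were read in the same T > C fit. Of 28 other SR and SR-like proteins tested, 4 were called lower and 1 higher, beside 33.0% and 2.97% of all genes, with a median log2 change of -0.59 beside -0.83. SRSF8, a retrogene copy of SRSF2, went from 8.55, 9.02 and 8.22 CPM to 1.19, 1.96 and 2.09 CPM (-2.27 ± 0.34, edgeR adjusted p = 2.55e-06). CCNL2, a cyclin of the CDK11 kinases (-1.80), SNRNP70, the U1 snRNP protein (-1.76), and SRRM2, a scaffold of nuclear speckles (-1.08), were the other 3. The values of SRSF8 are uncertain in so far as it shares sequence with SRSF2. TRA2B, an SR-like factor and the gene of this list with the most T > C reads, did not pass (0.23 ± 0.16, edgeR adjusted p = 0.222). ACIN1, the one called higher (1.67), had overlapping groups and few T > C reads, with 4 to 21 in DMSO and 16 to 89 in C646, and was named after its values were seen.

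Of 12 kinases of SR proteins tested, 2 were called lower and none higher, again beside 33.0% and 2.97% of all genes (median -0.72, 8 at an unadjusted p under 0.05 in edgeR). SRPK1, the cytoplasmic SR protein kinase that acts before CLK kinases, went from 18.8, 15.3 and 22.4 CPM of T > C reads to 5.83, 6.26 and 5.66 CPM, a log2 change of -1.67 ± 0.23 (edgeR adjusted p = 8.85e-07). CLK1 had 0.84. DYRK2 (-1.45) was the other, and PRPF4B, a kinase of the spliceosome, did not pass (-0.55, edgeR adjusted p = 0.0312). Of 8 phosphatases and transport factors 1 was called lower and none higher, beside the same shares of all genes (5 at an unadjusted p under 0.05 in edgeR), namely the export receptor NXF1 (-1.30 ± 0.30, edgeR adjusted p = 0.000582), while the phosphatase subunit PPP2CA had -0.011.

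Of 10 factors of nonsense-mediated decay, the pathway that degrades transcripts with premature stop codons, 5 were called lower in T > C reads and none higher, beside 33.0% and 2.97% of all genes (median -1.01 beside -0.83, 7 at an unadjusted p under 0.05 in edgeR). UPF1, its central helicase, had -1.02 ± 0.20 (edgeR adjusted p = 0.000106), the kinase SMG1 had -1.62 ± 0.39 and its regulator SMG9 had -1.81 ± 0.45. SMG5 (-2.33) and UPF3B (-3.13) were also called, on at most 25 T > C reads per library, and were named after their values were seen. In all reads, where 1.88% of all genes were called lower and 5.89% higher, 30, 15, 9 and 10 genes of the 4 lists were tested in the order given. None was called lower (14, 5, 2 and 5 at an unadjusted p under 0.05 in edgeR), and SRRM1 (1.82), ACIN1 (3.15), UPF3A (1.33) and SMG8 (1.03), named likewise, were called higher.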

How the data were processed

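Per the labels and the study's methods, 6 QuantSeq 3′ SLAM-seq libraries (3 DMSO, 3 C646) were processed with SLAM-Dunk v0.4.1 on the genome build GRCh38. The authors deposited raw counts of all, T > C and multimapped reads and of conversions per 3′ UTR entry. They also deposited the coverage of T positions, an unnormalised signal used for conversions per covered T, and CPM of all filtered reads, from which filtered totals were computed. The methods tested reads with at least 2 conversions, which are not separated in these tables.

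The 10 genes and all lists were chosen with earlier results of these data known. Counts were summed per gene, and genes kept by filterByExpr were tested with the quasi-likelihood test of edgeR 4.0.16 in R 4.3.3. T > C reads and reads without T > C used the TMM-scaled totals of all reads as library sizes. For odds, the model held a factor for the library and an interaction of treatment with the kind of read, and usage was fitted likewise by entry. Shares were ranked among genes with at least 50 reads per DMSO library on average. Further pathway genes were named if called in T > C reads without overlap and with a mean of 20 or more T > C reads in a library (up to 4 per direction and list), or as the gene with the most T > C reads. On simulated data for T > C reads (7636 genes tested), all 50 genes raised 4-fold and 62.0% of those lowered to 0.5 passed the adjusted p. The fold-change cutoff of a call was not applied there, and the median log2 change of those lowered to 0.5 was -0.99. Alternatives covered scaling, DESeq2 1.42.0, filters, entries, the replicate number and each library left out. The chi-square per degree of freedom between libraries of one group was 7.87 to 27.7, so no library was a duplicate. Reads carry no molecular identifiers.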

Additional observations from a re-analysis of the deposited data

How the results depend on the processing

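SRSF2 (T > C reads) and CLK1 (all reads and reads without T > C) kept direction and threshold under every alternative run, except SRSF2 under TMM on the T > C reads. That scaling left 0 of the 10 genes called lower and 2 called higher (7.595% and 9.14% of all genes), and turned SRSF3 (0.35), SRSF4 (0.20), SRSF6 (0.0086), SRSF11 (0.55) and CLK4 (0.28) above 0. Totals of all filtered reads gave 2 called higher in T > C reads, 3 in all reads and 4 in reads without T > C, beside 3.96%, 9.34% and 12.3% of all genes, and turned SRSF3 (0.016 and 0.055 in the latter 2 kinds) and, in all reads, SRSF7 (0.097). It moved the split of calls over all genes in all reads from 204 lower and 639 higher to 90 lower and 1014 higher. Values near 0 changed sign under DESeq2 size factors, plain totals and the DESeq2 test: SRSF11 in all reads (-0.0052, -0.015 and -0.0054) and SRSF7 in reads without T > C (-0.0057, -0.016 and -0.0057). With at least 200 reads per DMSO library, the median percentile of the T > C share was 68.9 in place of 59.7, as fewer genes were ranked. CLK4, with 80.7 reads per DMSO library on average, was below this minimum, so the 2 medians cover different genes. The cause of the other changes was not tested.

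With each library left out in turn, which also removes samples, the genes called numbered 1 to 2 lower and 0 to 2 higher in T > C reads, 1 to 2 lower and 0 to 2 higher by single entry, 1 to 2 higher in all reads, 2 to 3 higher in reads without T > C and 3 to 4 lower in odds. Of all genes in the same fits, 24.9% to 31.8% were lower and 2.52% to 3.15% higher in T > C reads, 23.7% to 31.6% and 2.48% to 3.19% by single entry, 4.01% to 6.56% higher in all reads, 5.35% to 8.37% higher in reads without T > C and 26.3% to 36.0% lower in odds. The signs that turned were those of SRSF11 (-0.10 to 0.081) and CLK4 (-0.27 to 0.27) in all reads, SRSF7 (-0.077 to 0.046) and SRSF11 (-0.074 to 0.12) in reads without T > C, SRSF5 in odds (-0.21 to 0.088), and the usage of CLK1 entries (terminal -0.21 to 0.41, the third -0.25 to 1.502, the fourth -1.08 to 1.72).

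Same-numbered libraries share only a number, with correlations of 0.030, 0.044 and 0.065 in T > C reads and -0.0014, 0.14 and 0.23 in all reads. Among the counts of called genes, the replicate block changed none (1 lower and 0 higher in T > C reads, 1 higher in all reads). Under the replicate block SRSF1 (0.75, adjusted p = 8.33e-05) and SRSF2 (-0.45, adjusted p = 0.00920) passed the adjusted p in all reads, SRSF6 missed it in odds (adjusted p = 0.0131), and the usage of the fourth entry of CLK1 turned to 0.069. Of 310 values under these settings other than a left-out library, 283 kept direction and threshold. CLK4 rested on 27 to 62 T > C reads per library, and the upstream CLK1 entries on at most 58 reads, which limits their precision.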
